A study of Homo sapiens with 7 samples.

Results

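Of the 506 regions made by merging overlapping intervals of 4 ChIP-seq lists (KMT2D in NC, KMT2D in KMT2D-KD, EBF2 in NC and EBF2 in KMT2D-KD), 238 held an interval of exactly 1 list, and the 89 of these that lay outside tandem repeats are described here. Each interval of a list is a place where the peak caller found more ChIP fragments than the input DNA predicts. The regions were chosen by these measured lists, so their fold enrichments, q-values and fragment numbers are given as a description only. All 238 single-list regions consisted of 1 interval: 105 were short tandem repeats, 43 were long tandem repeats, 1 lay near an assembly gap and 89 were outside repeats (37.4%, exact binomial 95% interval 31.2 to 43.9). These intervals and all others below cover counting error only.

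The cells were SW1990, an established human pancreatic cancer line. Each antibody target (KMT2D, EBF2 and H3K4me1) was profiled once in negative control cells (NC) and once in cells with a knockdown of KMT2D (KMT2D-KD), and a single SW1990 input served all 6 ChIP libraries. The labels do not say whether the input came from NC or KMT2D-KD cells, and KMT2D abundance after knockdown was not analysed here. There were no replicates, so no test between conditions was made and a region found in 1 list has no replicate check.

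KMT2D is a histone methyltransferase that places a single methyl group on lysine 4 of histone H3 (H3K4me1), mostly at enhancers, where it helps to prepare them for activation. EBF2 is an early B-cell factor, a DNA-binding transcription factor best known for its role in brown fat cells, and proteins of its family bind a palindromic motif with the core CCCNNGGG. A site bound by either protein at an enhancer would lie in or beside H3K4me1, which was profiled in the same cells and was not used to choose the regions.

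Sequences of 7 regions outside repeats are shown, 5′ to 3′ on the plus strand of hg38. Among regions without a near-identical copy elsewhere in the genome, those of highest −log10 q in the KMT2D-KD lists lay at chr16:58904406-58904566 near GOT2 (KMT2D) and chr9:115192410-115192577 near TNC (EBF2). The regions at chr12:75859968-75860215 near PHLDA1 and chr4:124018585-124018759 near SPRY1 were listed for KMT2D in KMT2D-KD and lay on H3K4me1 in both conditions. The region at chr1:149812036-149812221 was the closest to a gene start and lay in the coding exon of H2BC18. The regions at chr3:104114051-104114270 near ALCAM and chr3:141055372-141055593 in SPSB4 came from the EBF2 lists and held the EBF core inside the interval. Capitals mark the motif TGACGTCA in the GOT2 region, the motif TGANTCA in the PHLDA1 region and the motif CCCNNGGG in the ALCAM and SPSB4 regions. In the other sequences they mark the 11 bases at the summit, the point of highest enrichment. For contrast, the last sequence is a single-list region inside a short tandem repeat, at chr11:119743983-119744140 near NECTIN1.
GOT2: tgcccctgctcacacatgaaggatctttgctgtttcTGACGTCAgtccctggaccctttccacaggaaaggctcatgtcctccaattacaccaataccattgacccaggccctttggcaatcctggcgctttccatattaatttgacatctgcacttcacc
TNC: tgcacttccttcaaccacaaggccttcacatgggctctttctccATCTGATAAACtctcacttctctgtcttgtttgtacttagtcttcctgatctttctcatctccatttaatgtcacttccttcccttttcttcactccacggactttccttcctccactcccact
PHLDA1: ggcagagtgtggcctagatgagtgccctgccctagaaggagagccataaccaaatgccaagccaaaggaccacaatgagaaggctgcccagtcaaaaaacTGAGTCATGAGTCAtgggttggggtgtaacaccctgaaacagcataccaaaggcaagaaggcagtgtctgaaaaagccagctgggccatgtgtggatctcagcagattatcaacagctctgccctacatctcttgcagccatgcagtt
SPRY1: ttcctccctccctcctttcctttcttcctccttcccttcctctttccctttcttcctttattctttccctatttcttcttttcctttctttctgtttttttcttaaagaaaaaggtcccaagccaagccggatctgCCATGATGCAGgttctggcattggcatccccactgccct
H2BC18: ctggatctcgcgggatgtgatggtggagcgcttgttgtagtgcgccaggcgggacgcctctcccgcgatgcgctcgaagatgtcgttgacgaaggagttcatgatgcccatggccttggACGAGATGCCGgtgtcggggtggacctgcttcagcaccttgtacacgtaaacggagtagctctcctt
ALCAM: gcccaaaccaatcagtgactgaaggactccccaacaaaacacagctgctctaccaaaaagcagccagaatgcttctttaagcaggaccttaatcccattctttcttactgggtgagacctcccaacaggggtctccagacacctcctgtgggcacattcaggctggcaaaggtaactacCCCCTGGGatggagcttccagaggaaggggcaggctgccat
SPSB4: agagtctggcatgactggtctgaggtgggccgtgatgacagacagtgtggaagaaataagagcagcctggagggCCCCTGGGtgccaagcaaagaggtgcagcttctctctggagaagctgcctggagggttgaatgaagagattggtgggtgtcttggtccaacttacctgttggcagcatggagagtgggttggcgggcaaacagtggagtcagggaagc
NECTIN1: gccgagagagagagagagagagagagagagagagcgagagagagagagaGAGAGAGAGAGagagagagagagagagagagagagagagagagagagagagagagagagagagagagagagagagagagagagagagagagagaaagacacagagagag

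Repeats were recognised by a score, the largest share of bases of a region that equal the base a fixed number of bases away. A region was called a short tandem repeat at a score of 0.5 or more for distances of 1 to 60 bases, and a long tandem repeat at 0.6 or more for distances of 61 to 5000 bases. The NECTIN1 region above, a run of alternating G and A, had a short score of 0.952, against 0.387 for the GOT2 region and 0.330 for the PHLDA1 region. Just inside the limit for short repeats lay the S1PR3 region (0.498) and the SPRY1 region (0.489), whose sequence opens with a run of pyrimidines. Just outside it lay regions assigned to TPTE (0.522) and SHANK2 (0.579). For long repeats, the SLC6A13 (0.585) and CIITA (0.583) regions lay just inside the limit, and regions of DNAJC5B (0.636) and CWH43 (0.728) just outside.

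**Figure D1:**
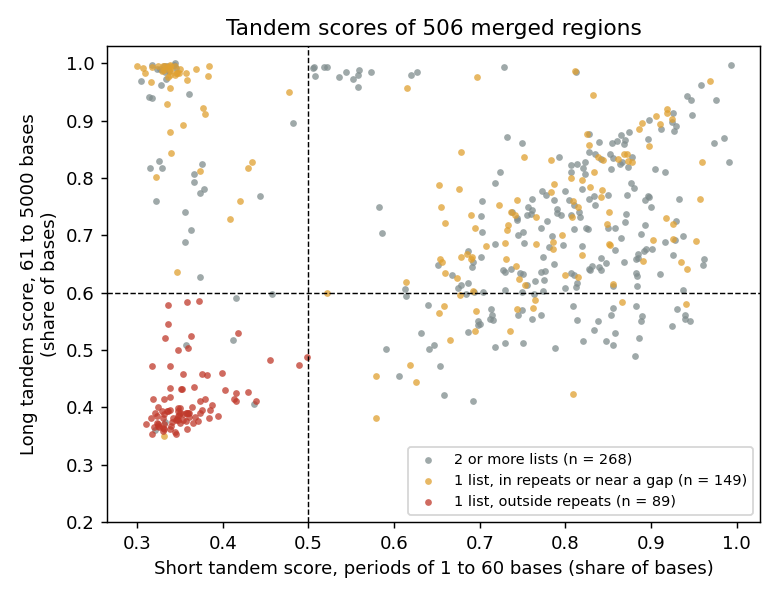
Each point is 1 of the 506 merged regions, by its short tandem score (x axis, share of bases) and long tandem score (y axis, share of bases), coloured by the number of lists and the repeat class. Dashed lines mark 0.5 and 0.6, and the 89 single-list regions outside repeats fill the lower left corner, where 5 regions of 2 or more lists also lie outside repeats.

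Regions outside repeats were mostly single-list regions. Among the 268 regions found in 2 or more lists, 5 were outside repeats (1.87%, 0.608 to 4.30), compared with 89 of 238 in the single-list set. These 5 lay near NBPF12 and OR11H1, at 2 positions near CWH43, and in an intron of CTNNA1, the gene of alpha-catenin. The CTNNA1 region was in all 4 lists, with 24 fragments at its summit and a fold enrichment of 13.5 in the list where its −log10 q was highest. In 2007 windows of 183 bases sampled along the genome, 90.5% were outside repeats, 1.59% were short repeats and 7.82% were long repeats. Among the 238 single-list regions 44.1% were short repeats (37.7 to 50.7).

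The 89 regions were spread over all 4 lists. NC KMT2D gave 20 of its 238 intervals (8.40%, 5.21 to 12.7), KMT2D-KD KMT2D 25 of 318 (7.86%, 5.15 to 11.4), NC EBF2 17 of 293 (5.80%, 3.42 to 9.13) and KMT2D-KD EBF2 27 of 311 (8.68%, 5.80 to 12.4). The 4 shares had overlapping intervals. By target there were 45 KMT2D and 44 EBF2 regions, and by condition 37 NC and 52 KMT2D-KD regions. KMT2D-KD KMT2D held 47 short repeats seen in no other list and NC KMT2D held 4, whereas regions outside repeats made up 55.6% of the single-list regions of NC KMT2D (38.1 to 72.1) and 32.5% of those of KMT2D-KD KMT2D (22.2 to 44.1), with overlapping intervals.

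The regions outside repeats rested on few fragments. The fragment number at a summit and its background, the number that the peak caller expected there, were recovered from the deposited fold enrichment and p-value of each interval, and 84 of the 89 regions had 7 to 13 fragments. Median backgrounds were 1.17 (NC KMT2D), 0.877 (KMT2D-KD KMT2D), 1.20 (NC EBF2) and 1.26 (KMT2D-KD EBF2). The lowest of each list were 1.13, 0.856, 1.14 and 1.01. Many regions shared the lowest value, so a background is not an input count at that site. The lowest, median and highest numbers were 8, 10 and 120 fragments in NC KMT2D, 7, 9 and 13 in KMT2D-KD KMT2D, 9, 10 and 78 in NC EBF2, and 8, 10 and 12 in KMT2D-KD EBF2. Most regions thus sat at or a few fragments above the smallest number that each list held at its lowest background, which was 8, 7, 8 and 8 fragments in the same order. Fold enrichments ranged from 2.15 to 7.51 with a median of 4.85. The median −log10 q was 2.80, with 52 regions under 3 and 5 over 5. Single-list regions in repeats or near a gap had a median of 17 fragments and a −log10 q of 7.59, and regions in 2 or more lists 47 fragments and 33.0. Each region carries the values of its interval of highest −log10 q. A region in 2 or more lists thus has the best of several intervals and a single-list region has only 1, which raises the values of the former. With 7 to 13 fragments, 84 regions thus lay at or a few fragments above the smallest numbers of their own lists. The fragments in the libraries where a region was not listed were not analysed here, so absence from a list gives no count there.

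**Figure D2:**
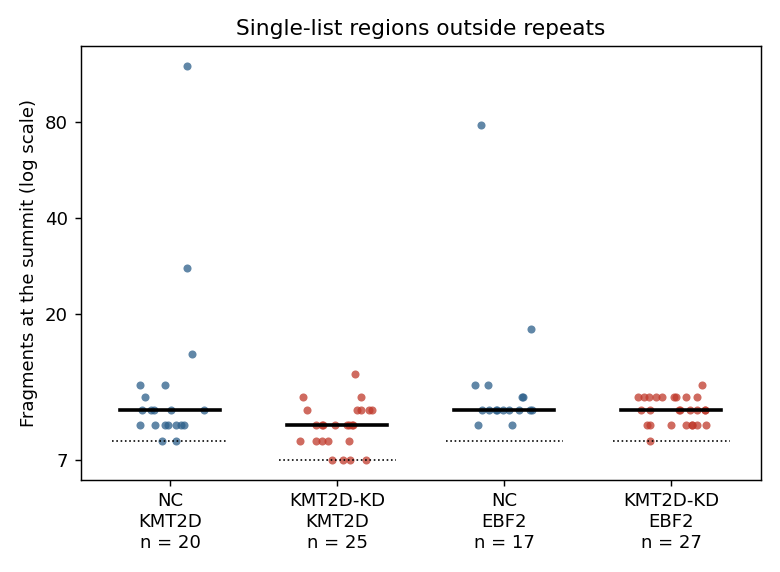
Fragments at the summit (y axis, log scale) of each of the 89 single-list regions outside repeats, by list. Solid lines are medians of 9 to 10 fragments, and dotted lines show the smallest fragment number each list held at its lowest background, 7 or 8. All but 5 regions lie between 7 and 13 fragments.

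Few of these regions were near misses of an interval in another list. The nearest interval of another list was at a median distance of 2446 kb, within 100 kb for 3 of the 89 regions and within 1000 bases for 1. That region, at chr22:11816565-11816860, was 836 bases from another interval. Among the 149 single-list regions in repeats or near a gap, 10 were within 1000 bases of another list's interval, the closest at 66 bases.

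The 5 regions with more than 13 fragments all had near-identical copies elsewhere in the genome (at least 90% identity over at least 80% of the region). Whether reads could be told apart between such copies was not tested. The chr22:11816565-11816860 region (NC KMT2D) had 120 fragments over a background of 40.1, a fold of 2.94, a −log10 q of 19.3 and 24 copies. Its nearest protein-coding gene start, that of the olfactory receptor gene OR11H1, was 3711398 bases away. A region 212959 bases upstream of ATP6V0D2, which encodes a subunit of the vacuolar proton pump, was listed for NC EBF2 with 78 fragments over 35.8, a fold of 2.15 and 222 copies. A region 1662 bases upstream of FAM90A10 (NC KMT2D) had 28 fragments over 6.42 and 25 copies. A region at chr20:29828245-29828413, assigned to the beta-defensin gene DEFB115 but 1429345 bases from its start, was listed for NC EBF2 with 18 fragments over 2.56 and 13 copies. The H2BC18 region had 15 fragments over 1.13 and 17 copies. All 4 regions with a background over 2 fragments were among these 5, and all 5 were from NC lists.

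Copies were found for 16 of the 89 regions in all, 11 of which had 10 or more. More than 1000 copies were found for the regions of MYRIP (2831), CDH8 (1724) and UNC5D (1033). The remaining 73 regions had no copy by this measure, and all 73 had a background of up to 2 fragments. Among those of the KMT2D-KD lists the highest −log10 q was 4.63 for GOT2 (KMT2D) and 4.43 for TNC (EBF2), with 11 fragments each.

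**Figure D3:**
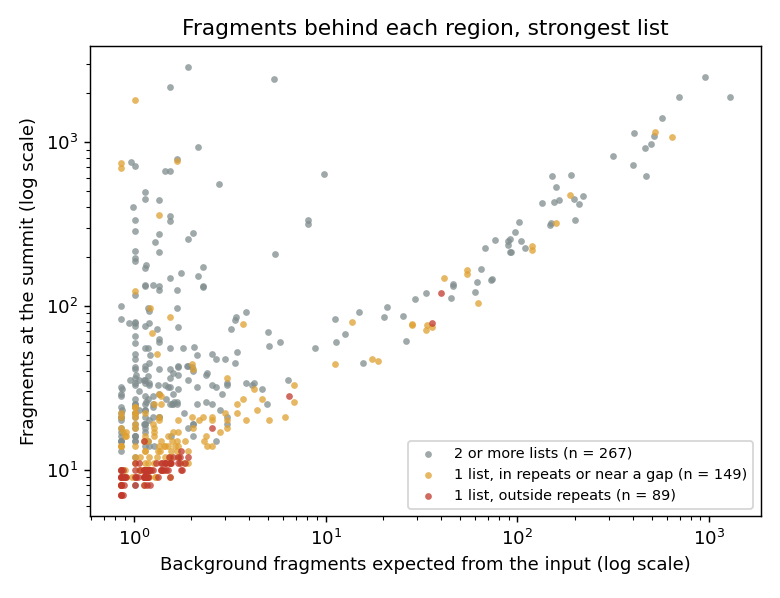
Fragments at the summit (y axis, log scale) against background fragments expected from the input (x axis, log scale) for the strongest interval of each merged region. Single-list regions outside repeats lie along the lower edge, 85 of 89 at a background of up to 2, while regions in 2 or more lists reach a median of 47 fragments. One region in 2 or more lists without a recovered number is left out.

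The 3 regions of highest −log10 q in each KMT2D-KD list lay outside H3K4me1 in both conditions. So did all but 3 of the 89 regions and nearly all genome windows, of which 1.50% were on H3K4me1 in NC and 2.26% in KMT2D-KD. The GOT2 region (11 fragments over 1.02, fold 5.95) was 170141 bases upstream of GOT2, the gene of the mitochondrial aspartate aminotransferase, in an intron of the gene ENSG00000245768. A region near the olfactory receptor gene OR7A17 (10 fragments over 0.856, fold 5.93) was 11795 bases upstream, and one near ICA1, the gene of an islet cell autoantigen, had the same values at 84248 bases. Of the EBF2 regions in KMT2D-KD, that near TNC had 11 fragments over 1.07 and lay 74252 bases upstream of this gene of the matrix protein tenascin C. A region in an intron of C2, a complement component, had 10 over 1.01 and lay 321 bases from the start of a protein-coding transcript, though 8036 bases from the nearest gene start. A region in an intron of SCUBE2, which encodes a secreted protein of Hedgehog signalling, had 11 over 1.39.

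To see whether the regions lay at enhancer chromatin, they were compared with the H3K4me1 lists. In NC, 3 of 89 regions overlapped an H3K4me1 interval by at least 1 base (3.37%, 0.701 to 9.54), beside 1.50% of all genome windows of the same median width. In KMT2D-KD, 2 of 89 did (2.25%, 0.273 to 7.88), beside 2.26% of windows. Both intervals held the share of the windows, and these shares rested on 3 and 2 regions, so neither is a result about the regions. Single-list regions in repeats or near a gap overlapped H3K4me1 more often, at 21 of 149 in NC (14.1%, 8.94 to 20.7) and 23 of 149 in KMT2D-KD (15.4%, 10 to 22.3). Regions in 2 or more lists had the highest shares, with 70 of 268 in NC (26.1%, 21.0 to 31.8) and 100 of 268 in KMT2D-KD (37.3%, 31.5 to 43.4). In KMT2D-KD the interval of the regions outside repeats did not reach those of either other set, and in NC it met that of the single-list regions in repeats. Median widths were 183 bases outside repeats, 194 for the other single-list regions and 306 for regions in 2 or more lists, and the part of width or fragment number in these shares was not tested.

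**Figure D4:**
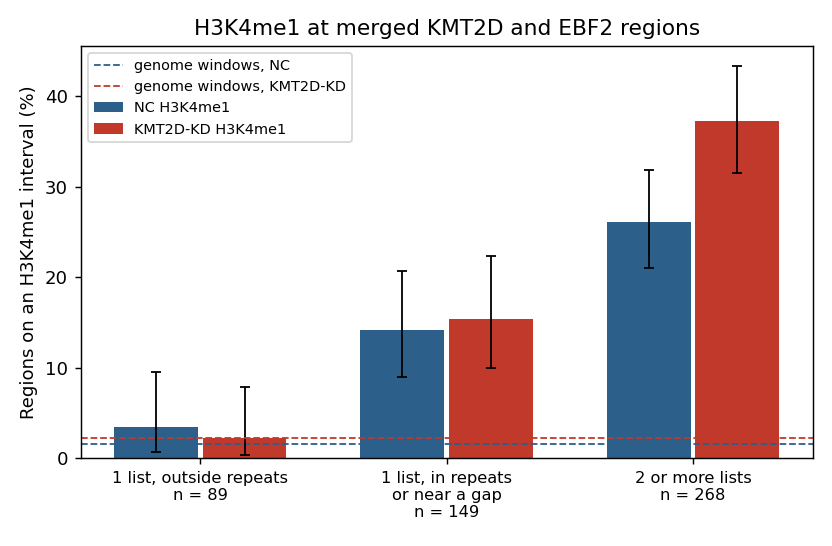
Share of regions that overlap an H3K4me1 interval (y axis, %) in NC and KMT2D-KD, for 3 sets of merged KMT2D and EBF2 regions. Error bars are exact binomial 95% intervals, and dashed lines show genome windows (1.50% in NC, 2.26% in KMT2D-KD). The 89 single-list regions outside repeats sit at 3.37% and 2.25%, below the bars of both other sets.

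The 3 regions on H3K4me1 were all from KMT2D lists. The PHLDA1 region (KMT2D-KD, 7 fragments over 0.877) lay whole within an H3K4me1 interval in NC (fold 4.81, −log10 q 4.78) and in KMT2D-KD (fold 4.12, −log10 q 3.47). It was 171636 bases from the start of PHLDA1, a gene of a pleckstrin homology-like domain protein, in an intron of ENSG00000258077. Its sequence held 2 directly adjacent copies of the AP-1 motif, marked in capitals above. The SPRY1 region (KMT2D-KD, 8 fragments over 0.856) lay on H3K4me1 with a fold of 5.19 in NC and 6.83 in KMT2D-KD, and −log10 q of 6.33 and 9.23. SPRY1, an inhibitor of receptor tyrosine kinase signalling, starts 621931 bases away. The remaining one, at chr22:12143008-12143299 (NC, 10 fragments over 1.13), shared 181 bases with an NC H3K4me1 interval of fold 3.86 and −log10 q 2.85, and had 9 copies elsewhere. None of the 44 EBF2 regions overlapped H3K4me1 in either condition. Of genome windows, 1.50% were on H3K4me1 in NC and 2.26% in KMT2D-KD. At shares this low, 44 regions can hold no overlap by background alone, so this absence is not a result about EBF2. A difference between the KMT2D and EBF2 regions was not tested.

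Proximity to H3K4me1 gave a similar picture. Within 5000 bases of an interval lay 15 regions in NC (16.9%, 9.75 to 26.3), beside 13.0% of windows, and 15 in KMT2D-KD, beside 16.8% of windows. The median distance was 52.4 kb to NC H3K4me1 and 28.0 kb to KMT2D-KD H3K4me1, where the windows had 50.8 and 35.9 kb. Examples within 5000 bases but not on the mark were the regions in USH1C (2022 bases in NC, 348 in KMT2D-KD), near TMC5 (1389 and 1404 bases) and near IRAG1 (2541 and 2505 bases), all from EBF2 in KMT2D-KD. These 3 were picked after their values were seen. Of the 52 regions from KMT2D-KD lists, 11 were within 5000 bases of H3K4me1 in their own condition (21.2%, 11.1 to 34.7), and of the 37 from NC lists, 4 were (10.8%, 3.03 to 25.4). The intervals of these shares overlapped.

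Most regions were intronic or intergenic. The summit lay within a protein-coding gene for 38 of 89 regions (42.7%, 32.3 to 53.6), beside 44.4% of windows. By feature, 35 summits were in introns of protein-coding genes, 11 in introns of other genes, 40 were intergenic and 3 were in exons. Within 5000 bases of a protein-coding gene start lay 8 regions (8.99%, 3.96 to 16.9), beside 5.92% of windows, and within 1000 bases 2 (2.25%, 0.273 to 7.88), beside 1.25% of windows. The median distance to a gene start was 87.8 kb, against 91.2 kb for windows, and 9 regions were more than 1 Mb from any. All these shares had intervals that held the value of the windows.

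**Figure D5:**
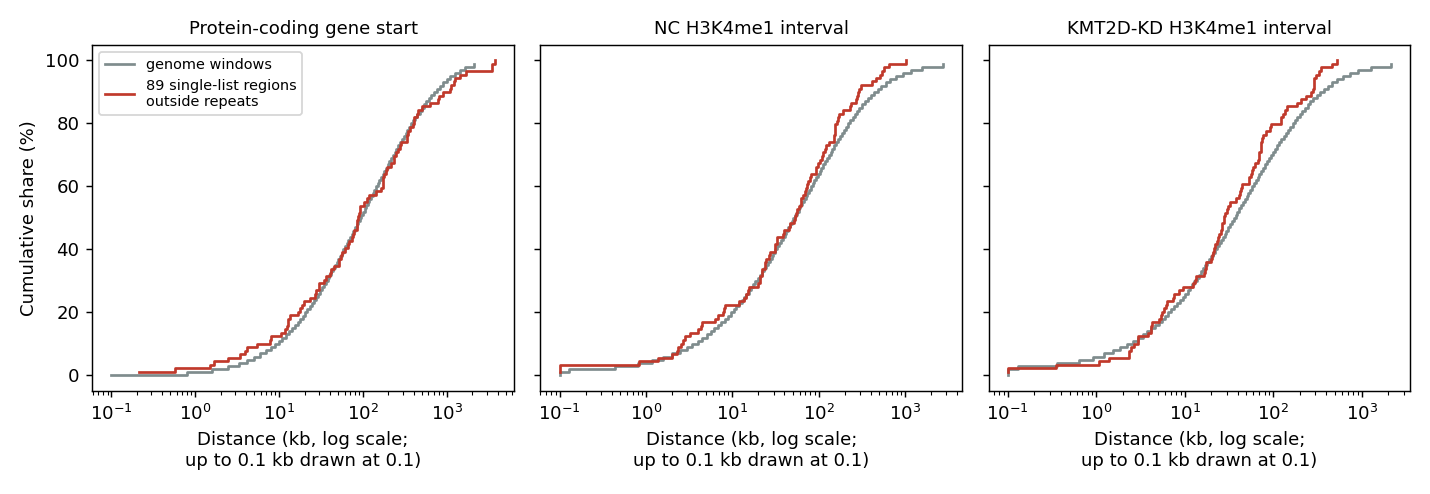
Cumulative share (y axis, %) of the 89 single-list regions outside repeats (red) and of genome windows (grey) by distance (x axis, kb, log scale) to the nearest protein-coding gene start, NC H3K4me1 interval and KMT2D-KD H3K4me1 interval. The curves run close together, with medians of 87.8 and 91.2 kb for gene starts, 52.4 and 50.8 kb for NC H3K4me1, and 28.0 and 35.9 kb for KMT2D-KD H3K4me1 (regions and windows).

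The exonic regions were those in H2BC18, STEAP3 and KIR2DS4. The H2BC18 region (NC KMT2D, fold 7.51, the highest of the 89) had its summit 213 bases inside the gene, in the coding exon of this histone H2B gene. It was also the only one of 20 NC KMT2D regions with more than 12 fragments at a background under 2. It had 17 copies elsewhere, and whether its reads could be told apart from theirs was not tested. The STEAP3 region, at chr2:119264125-119264392 (NC KMT2D, 11 fragments over 1.48), had its summit in the 3′ UTR of this metalloreductase gene, 40428 bases from its start. The KIR2DS4 region, at chr19:54847966-54848128 (KMT2D-KD KMT2D, 9 fragments over 0.856), lay in an exon of a noncoding transcript of this killer cell receptor gene, with 4 copies elsewhere. The second region within 1000 bases of a gene start, at chr6:44272491-44272662 (KMT2D-KD EBF2, 9 fragments over 1.01), was in an intron of TMEM151B and 573 bases upstream of ENSG00000272442.

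The other 5 regions within 5000 bases of a gene start, beside that of FAM90A10, were those of DYDC1 (1477 bases), KIR2DS4 (2446 bases from KIR3DL2), FAM171A2 (3436), FGFBP2 (3910) and SPSB4 (4141). Each had 9 to 11 fragments. They came from all 4 lists: DYDC1 and KIR2DS4 from KMT2D in KMT2D-KD, FAM171A2 from EBF2 in NC, FGFBP2 from KMT2D in NC and SPSB4 from EBF2 in KMT2D-KD.

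Short gene lists were looked up among the regions: genes named in the study, H3K4 methyltransferases and their partners (14 genes), the EBF family and its partner zinc finger genes (6), AP-1 genes (10) and a list of 15 pancreatic and endoderm transcription factors that includes GATA4, PDX1 and SOX9. Of the 89 regions, 0 lay within 100 kb of the start of any of these 54 genes, beside 0.368% of genome windows, so with so few genes the count of 0 is not a result about the regions. JUNB, an AP-1 subunit, was the closest at 2.11 Mb. The list does not cover all pancreatic factors. A region of KMT2D in KMT2D-KD, at chr4:84457795-84457957 (9 fragments over 0.856), lay 41445 bases from the start of NKX6-1, a transcription factor of pancreatic beta cells, and was singled out after its values were seen.

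Motifs were searched on both strands within 100 bases of the summits. The EBF core CCCNNGGG, which reads the same on both strands, was present in 7 of 89 regions (7.87%, 3.22 to 15.5) and in 3.16% of genome windows of that length. Of the 7 regions, 3 were among the 44 EBF2 regions (ALCAM, IGSF11 and SPSB4) and the others were from KMT2D lists (GPC5, STEAP3, DUSP4 and CPXCR1). The AP-1 motif TGANTCA was in 5 regions (5.62%, beside 6.19% of windows), the FOXA motif TGTTTAC in 4 (4.49%, beside 3.02%) and the TEAD motif GGAATG in 9 (10.1%, beside 11.1%). The cyclic AMP response element TGACGTCA was in 1 region, that of GOT2, and in 0.0642% of windows. The interval for the EBF core began just above the share of the windows, with 4 matches in 45 KMT2D regions and 3 in 44 EBF2 regions, and the intervals for AP-1 (1.85 to 12.6), FOXA (1.24 to 11.1), TEAD (4.73 to 18.3) and the cyclic AMP response element (0.0284 to 6.10) held the share of the windows.

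The base composition of the regions differed from that of the genome. The median GC content was 51.1% (range 29.4 to 60.5), against 39.9% for windows, and 72 of 89 regions were over 45% GC, as were 31.3% of windows. The other merged regions had medians of 50.0% (single-list, in repeats or near a gap) and 51.1% (2 or more lists), so this feature was common to all sets. The part of GC content in the motif and distance values above was not tested.

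Some regions lay in the same neighbourhood without touching. There were 11 pairs of neighbouring regions within 1 Mb, 9 of different lists and 2 of the same list, and no background was computed for this count. On chromosome 3, KMT2D-KD regions in CAND2 (KMT2D) and IQSEC1 (EBF2) were 336 kb apart, and 2 regions near WNT7A, a Wnt ligand gene, followed at 652 and 102 kb (both KMT2D). Also on chromosome 3, regions in KY (EBF2) and EPHB1 (KMT2D) and near PPP2R3A (EBF2), all KMT2D-KD, were 601 and 464 kb apart. Chromosome 3 held 13 of the 89 regions (14.6%, beside 6.74% of genome windows). It was singled out after the counts were seen, as the chromosome with the most regions, and this difference was not tested. Chromosomes 2 and 16 held 8 each, and chromosomes 14, 21 and Y held none. The shares of windows on these chromosomes, which differ in length, are not given here, so their counts are not a result about the regions. The copy number of these chromosomes in SW1990 was not analysed here.

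Single-list regions inside repeats differed from those outside in strength, and mainly in 1 list. In KMT2D-KD KMT2D, 5 single-list repeats had a fold enrichment of 100 or more, while the other 3 lists had none. The NECTIN1 repeat reached 1804 fragments over a background of 1.02 (fold 895), and the nearest interval of another list was 2805 kb away. The others were in PLCL1 (fold 405), near KCNJ3 (372), in MAP4K4 (285) and in PLA2G7 (152). The MAP4K4 repeat lay on an NC H3K4me1 interval of fold 37.7 and on none in KMT2D-KD. The strongest single-list repeats of the other lists were those of FAM72B (NC KMT2D, fold 7.32), HECW1 (NC EBF2, 44.3) and SHANK2 (KMT2D-KD EBF2, 22.4). The 89 regions outside repeats had no counterpart of this size, with a highest fold of 7.51.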

How the data were processed

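Chromatin immunoprecipitation with sequencing was carried out for KMT2D, EBF2 and H3K4me1 in NC and KMT2D-KD SW1990 cells, 1 library each, with 1 input. The authors filtered the reads with perl scripts of their own (adapters, undetermined bases, poor quality) and aligned what was left with bwa, and the submitters' processing notes name BWA, MACS2, HOMER and hg38. Versions and settings are not given in the sources used here. Each deposited list holds, per interval, a fold enrichment over the input (a ratio) and −log10 p and −log10 q values. The largest q-value of the 4 KMT2D and EBF2 lists was 0.0382 to 0.0474. The deposited score of each interval, which derives from its q-value, was not used. Read totals were not used here. The fragments at each summit and the background were therefore solved from the fold, taken as (fragments + 1) / (background + 1), and the Poisson p-value, to within 0.001. This gave a whole number for 237 of 238, 317 of 318, 292 of 293 and 309 of 311 intervals (NC KMT2D, KMT2D-KD KMT2D, NC EBF2, KMT2D-KD EBF2). The lowest backgrounds, which follow library depth, were 1.13, 0.856, 1.14 and 1.01 fragments.

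Intervals of the 4 lists sharing at least 1 base were merged, on 24 chromosomes. Gaps were runs of at least 100 undetermined bases, and regions within 10000 bases of one were left out. Genes were the 20033 protein-coding genes of GENCODE release 44, and distances to gene starts were measured from summits. Copies were searched with BLAST+ 2.17.0. Genome windows had the median width of the regions, 183 bases, and held no undetermined bases. Windows in repeats or near gaps were kept, whereas such regions were left out. Python 3.11.15, numpy 2.4.6, scipy 1.17.1 and pysam 0.24.0 were used, and the scripts were tested on simulated data. Shares have exact binomial (Clopper-Pearson) 95% intervals. Named regions were the 3 with the highest −log10 q per list, all within 1000 bases of a gene start or in an exon, and those on H3K4me1 with the highest −log10 q, part of which is not reported here. A region is named for the protein-coding gene that holds its summit, otherwise the one with the nearest start. The regions, gene lists and rules were chosen with earlier results of these data known. Alternatives for overlap, thresholds, repeat scores and gene sets were also computed.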

Additional observations from a re-analysis of the deposited data

How the results depend on the processing

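Of 34 alternative values, 28 differed from the reported ones by less than 1.5 times (the number of regions) or stayed within the binomial interval (the shares), and 6 did not. The number of regions outside repeats was 37 with intervals of −log10 q of at least 3 in place of 89, and 71 to 93 under all other settings. The share on KMT2D-KD H3K4me1 was 0 of those 37 regions, with an exact binomial interval of 0 to 9.49%. With H3K4me1 intervals of −log10 q of at least 5, the shares on H3K4me1 were 1.12% in each condition (1 of 89). Over the remaining settings the share ranged from 2.63% to 4.49% in NC and from 1.32% to 3.37% in KMT2D-KD, wide relative changes that rest on 1 to 4 regions. The share within 5000 bases of a gene start was 19.1% with any transcript start of protein-coding genes (windows 15.2%) and 18.0% with all annotated genes (windows 16.5%), and with a window of 1000 bases it was 2.25%. The share within a gene was 55.1% with all annotated genes (windows 60.5%). Leaving out regions with a copy elsewhere or a background over 2, a setting chosen after seeing the data, left 73 regions, of which 2.74% were on H3K4me1 in each condition, 6.85% within 5000 bases of a gene start and 45.2% within a protein-coding gene. A definition of repeats by soft-masked bases was not run, because the reference used here is unmasked. No paired analysis was possible because each target and condition had 1 library and no test was made. Regions of 7 to 13 fragments are at or a few fragments above the smallest numbers that their own lists hold at the lowest background.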
